A study of Caenorhabditis elegans with 4 samples.

Results

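The loci described here are places where RNA polymerase II (Pol II) was called over a wide stretch in 1 or both single-replicate lists from Caenorhabditis elegans larvae, and where the list that the authors called on both replicates merged has no region at all. Members were the regions of the replicate 1 and replicate 2 lists on the 6 nuclear chromosomes that were at least 1000 bp wide and overlapped no region of the combined list by 1 bp or more. There were 405 such regions among 14473 in both replicate lists, 130 in replicate 1 and 275 in replicate 2. Overlapping members were merged into 271 loci, of which 104 came from both replicates, 22 from replicate 1 only and 145 from replicate 2 only. The members were selected on width and on absence from the combined list, so widths, q-values and the share of absent regions are given as a description and carry no test.

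Pol II transcribes all protein-coding genes and many small RNAs. Its largest subunit, AMA-1 in C. elegans, ends in a repeated heptapeptide that is phosphorylated as the enzyme leaves the promoter and moves along the gene. In chromatin immunoprecipitation and sequencing (ChIP-seq), DNA crosslinked to the enzyme is pulled down and its reads are compared with input chromatin. A narrow region usually marks a promoter, while a wide one can cover a gene body, several neighbouring genes or one of the operons that are common in this worm.

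The animals were whole L3 larval hermaphrodites, kept at 20 °C and fed the bacterial strain HB101. The formaldehyde concentration was 2% for all 4 samples. All 4 samples, 2 Pol II ChIPs and 2 inputs, carried the same genotype in the labels: strain OP54, with the mutation unc-119(ed3) on chromosome III. OP54 also carries the transgene wgIs54, which holds a rescuing unc-119(+) and egl-5 fused to the tags TY1, EGFP and 3xFLAG. The labels' own description speaks of an EOR-1 fusion instead, and OP81 is the strain in the sample table. There was no untreated or wild-type group. The antibody, 8WG16, recognises the Pol II heptapeptide and not the tag. Replicate 1 had 3262273 uniquely mapped reads and replicate 2 had 4623128, and the same pooled input served as control for all 3 lists. A locus occupied in many cells and one occupied heavily in few cells cannot be told apart in whole animals.

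The absent regions stood apart from other wide regions in strength and, as given below, in width. Each region has a q-value from the authors' peak caller, and a lower q, or a higher −log10 q, means stronger evidence for an excess of ChIP over input reads. It does not give the size of that excess. Strength here means the q-value only. Of the 1829 wide regions of replicate 1, 130 were absent from the combined list (7.11%, Wilson 95% interval 6.02 to 8.38), and of the 1057 of replicate 2, 275 were (26.0%, interval 23.5 to 28.7). The intervals cover counting error only, and the shares follow from the rule. Of regions of any width, 11.3% of replicate 1 and 13.9% of replicate 2 were absent. Among wide replicate 1 regions with q between 1e-50 and 1e-20, 5 of 594 were absent, whereas of those with q below 1e-200, 80 of 100 were (interval 71.1% to 86.7%). In replicate 2 the share was already higher in the middle classes, with 49 of 343 absent between 1e-50 and 1e-20, 57 of 170 between 1e-100 and 1e-50, 102 of 123 between 1e-200 and 1e-100 and 33 of 34 below 1e-200.

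**Figure D1:**
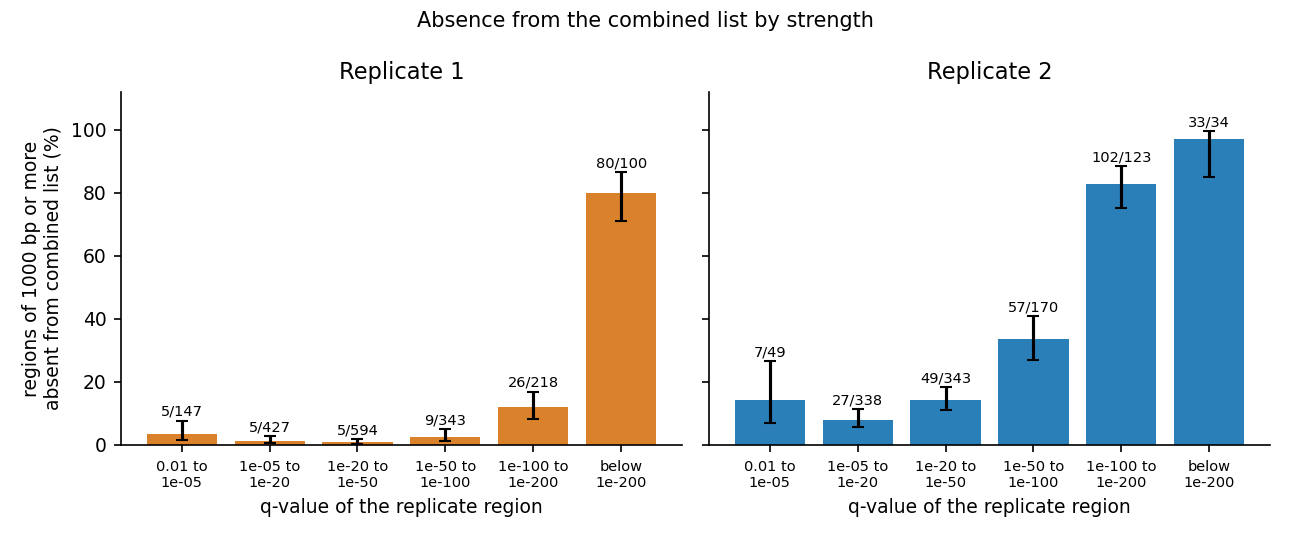
Bars give the percent of regions of 1000 bp or more that overlap no combined region, by the region's own q-value (strongest class at the right), for each replicate. Error bars are Wilson 95% intervals and labels give absent regions over all wide regions of the class. The share reaches 80 of 100 in replicate 1 and 33 of 34 in replicate 2 in the strongest class.

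The top of each replicate list consisted almost wholly of these regions. Of the first 20 lines, 19 in replicate 1 and 20 in replicate 2 were members, and of the first 100 lines, 80 and 92 were. The median −log10 q of members was 220.3 in replicate 1 (quartiles 158 and 263), against 31.7 for wide regions that the combined list holds. In replicate 2 it was 97.1 (quartiles 41.9 and 151), against 22.6. Members were also wider. Their median was 4690.5 bp in replicate 1, against 1970 bp for the wide regions present in the combined list, and 2653 bp in replicate 2, against 1488 bp. Wider members were also the stronger ones, with Spearman's rho of width and −log10 q of 0.53 across replicate 1 members and 0.69 across replicate 2 members. Strength and width were not separated here.

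The combined list is itself incomplete at its strong end, and so are the replicate lists. Ranks recovered from ties in the q-values place the first line of the combined list at rank 263, of replicate 1 at rank 153 and of replicate 2 at rank 72, which leaves 262, 152 and 71 stronger tested regions unlisted. The lowest p-values recovered from the listed lines were 1e-307, 1e-308 and 1e-304, which lie at the lower end of what double-precision numbers can hold. Whether the unlisted regions had p-values of 0 was not tested. The 271 loci lay in 210 different gaps between neighbouring combined regions, and the 183 loci with q below 1e-100 in 174 gaps. A place that all 3 lists lack cannot be found by comparing them.

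Loci from both replicates had stronger values than the first 100 regions that the combined list does hold. In these 104 loci, −log10 q had a median of 229 in replicate 1 (quartiles 196 and 269) and 109.8 in replicate 2 (quartiles 70.8 and 147). Regions of replicate 1 at the first 100 combined lines had a median of 159 (quartiles 139 and 179), and those of replicate 2 a median of 61.3 (quartiles 44.3 and 85.2). The quartile ranges of the first comparison do not overlap, while those of the second do. The 22 loci from replicate 1 only had a lower median than replicate 1 had in loci from both, 60.0. The 145 from replicate 2 only had a median of 105 (quartiles 32.7 and 181), close to the 109.8 of replicate 2 in loci from both.

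The second question was whether the other replicate also marked these places, a measure that the rule did not use. Among replicate 1 members 118 of 130 overlapped a replicate 2 region of any width (90.8%, Wilson 95% interval 84.6 to 94.6), against 57.8% of all replicate 1 regions and 92.9% of its wide regions present in the combined list (interval 91.6 to 94.1). Among replicate 2 members 140 of 275 overlapped replicate 1 (50.9%, interval 45.0 to 56.8), against 72.4% of all replicate 2 regions and 96.2% of its wide regions present in the combined list (interval 94.6 to 97.3). Over all q classes together, members of replicate 1 were thus paired about as often as its other wide regions, and members of replicate 2 less often. When overlap of 50% of both regions was required, 55.4% of replicate 1 members had a partner, more than the 31.8% of its present wide regions and the 29.4% of all its regions, which turns that comparison. In replicate 2 the shares were then 26.2%, 49.6% and 30.4%. With 2 libraries no test over samples was possible.

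Replicate 2 members at both ends of the q range had a partner less often than those in the middle. Of those with q below 1e-200, 6 of 33 overlapped replicate 1 (18.2%, interval 8.61 to 34.4). Between 1e-200 and 1e-100 58 of 102 did, between 1e-100 and 1e-50 34 of 57, and between 1e-50 and 1e-20 32 of 49 (65.3%, interval 51.3 to 77.1). Among the weak members 8 of 27 between 1e-20 and 1e-05 did (29.6%, interval 15.9 to 48.5), and 2 of 7 above 1e-05. Wide replicate 2 regions present in the combined list had a partner more often in every class. From the strongest class to the weakest, 1 of 1, 21 of 21, 111 of 113, 291 of 294, 294 of 311 and 34 of 42 did. In replicate 1 the strongest members kept their partners, 77 of 80 with q below 1e-200, against 20 of 20 present wide regions. Between 1e-200 and 1e-100 23 of 26 members had a partner, against 192 of 192, and between 1e-100 and 1e-50 8 of 9, against 333 of 334. Between 1e-50 and 1e-20 5 of 5 members did, against 571 of 589, and between 1e-20 and 1e-05 5 of 5, against 367 of 422. Above 1e-05 0 of 5 members had a partner, against 96 of 142. In all, 135 of the 271 loci had no replicate 1 line of any width, and 12 had no replicate 2 line. The 135 loci lay in 98 gaps of the replicate 1 list, which lacks its 152 strongest tested regions. A missing replicate 1 partner of a strong replicate 2 region is thus not shown to be a difference between the replicates.

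**Figure D2:**
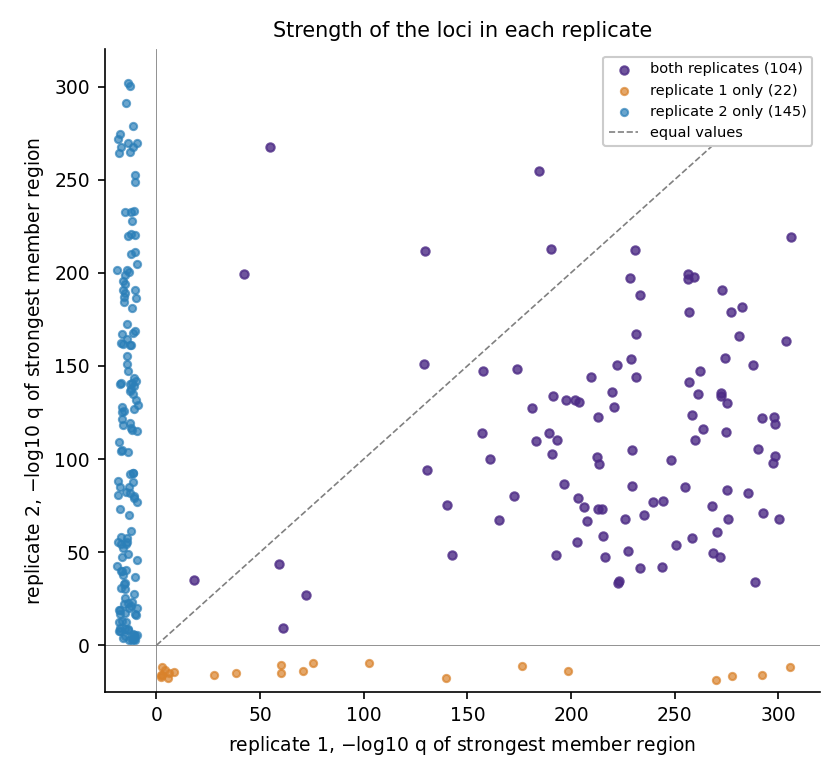
Each point is a locus, with the −log10 q of its strongest member region in replicate 1 (x axis) and replicate 2 (y axis). Loci from 1 replicate only are drawn in strips beside the axis they lack, spread at random within the strip, and the dashed line marks equal values. Of the 104 loci from both replicates 97 lie below the line, and the 145 loci from replicate 2 only span its whole range.

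Loci from both replicates had a median width of 5289.5 bp (quartiles 4123 and 6546 bp), and 100 of the 104 had q below 1e-100 in at least 1 replicate. The lowest q lay on chromosome IV at 16166012 to 16171721, 5710 bp wide, with q = 8.45e-307 in replicate 1 and q = 6.40e-220 in replicate 2. It also led the loci when each was ranked by its weaker replicate, so both replicates placed it very high. The nearest combined region lay 662 bp to its right, and the next to its left was 144930 bp away. Next came a locus on chromosome III at 831883 to 836489, with q = 3.34e-304 and q = 2.93e-164. Comments in the files mark its regions as altered in structure by the conversion to the present build, and no other locus is so marked.

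The other loci among the 10 lowest q-values also had the lower q in replicate 1. The 10 were chosen by the lowest q in either replicate, and replicate 1 had the lower q in 97 of the 104 loci. That choice favours loci with a low replicate 1 value. The X locus at 16790848 to 16801533 was 10686 bp wide and had q = 3.32e-301 in replicate 1, and in replicate 2 it was 2 member regions with a lowest q of 1.70e-68. Chromosome III, 883167 to 889689, had q = 2.47e-299 and q = 2.07e-119. On the X chromosome, 13348298 to 13351847 had q = 5.73e-299 and q = 2.55e-102. In each of these the replicate 1 value was the lower.

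The remaining 5 were on chromosome IV at 7505678 to 7509368 and 7907982 to 7913393, chromosome III at 6298767 to 6304486, chromosome II at 9933525 to 9939054 and chromosome I at 1223463 to 1230654. Their q-values ran from 8.13e-299 to 9.05e-291 in replicate 1 and from 1.80e-123 to 9.85e-72 in replicate 2. On chromosome V the lowest q belonged to 13651817 to 13659631, with q = 3.78e-275 and q = 1.04e-154.

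Replicate 1 had the lower q in 97 of the 104 loci and the larger number of bases in member regions in 94. This was not particular to the absent loci: among 644 loci built the same way from wide regions that the combined list holds, replicate 1 had the lower q in 527 and more bases in 576. The q-values of the 2 replicates hardly ranked alike across the 104 loci (Spearman's rho = 0.11 across loci of the same 2 libraries), and the numbers of bases did so more closely (rho = 0.66). In the 644 other loci the rho of q was 0.67. These rhos cover different ranges of strength. Replicate 1 −log10 q at the 104 loci had quartiles of 196 and 269 and a highest value of 306, at the strong end where its list stops. The best −log10 q of all 1756 present wide loci had quartiles of 14.3 and 60.7. How the range bears on the rhos was not tested. The low rho moved with the settings, to 0.28 with a minimum width of 500 bp and to -0.05 when regions up to 1000 bp apart were merged.

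**Figure D3:**
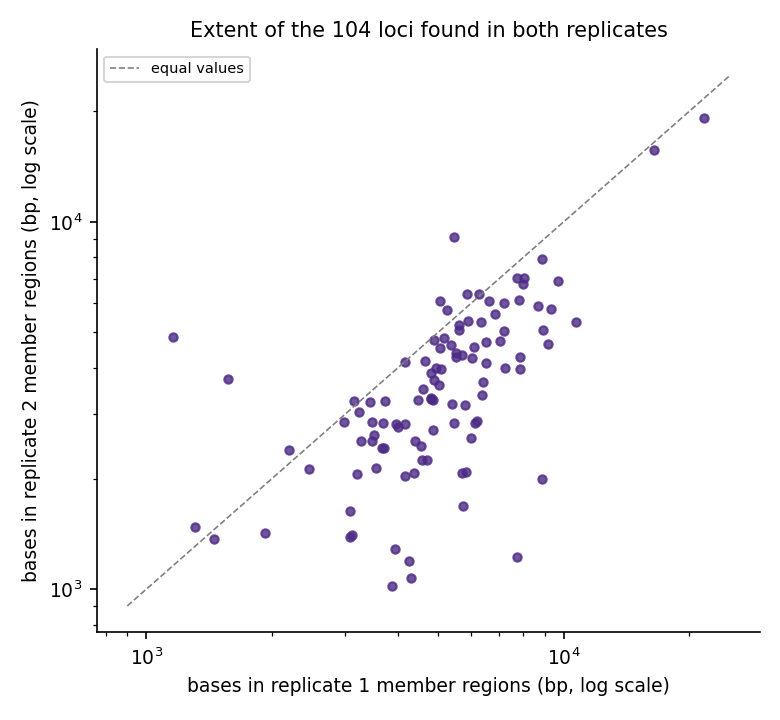
Each point is 1 of the 104 loci from both replicates, with the bases in its replicate 1 member regions on the x axis and in its replicate 2 member regions on the y axis, both on a log scale. Points below the dashed line have more bases in replicate 1, which holds for 94 loci.

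Replicate 2 mostly drew the same locus shorter. In 80 of the 104 loci each replicate had 1 member region, and in 66 of these the replicate 2 region lay wholly inside that of replicate 1. Its start was a median of 501 bp further in and its end a median of 396.5 bp further in. The replicate 1 region was 1.37 times as wide at the median (quartiles 1.12 and 1.83). In 20 loci 1 replicate 1 member faced several replicate 2 members, and 4 loci held several replicate 1 members.

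The widest locus, on the X chromosome at 11464225 to 11486262, spanned 22038 bp. It joined 2 replicate 1 regions (lowest q = 2.03e-161) and 4 replicate 2 regions (lowest q = 9.90e-101), and the 2 replicates covered 21667 and 19136 bp of it. The second widest, on chromosome I at 11665440 to 11682193, was 1 replicate 1 region (q = 8.41e-274) and 2 replicate 2 regions (q = 1.91e-191). Both are cases in which the replicates drew nearly the same extent with different numbers of breaks. On chromosome V, the wide loci at 10465717 to 10477386 and 8417359 to 8427611 were in replicate 2 only, with q = 3.03e-270 and q = 5.48e-201. Of all 271 loci 181 were 2500 bp wide or more (66.8%, interval 61.0 to 72.1). Of the 1756 present wide loci, built the same way from wide replicate regions that overlap the combined list, 635 were (36.2%, interval 33.9 to 38.4).

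The 145 loci from replicate 2 only were narrower, with a median width of 2527 bp, and ranged from q = 0.00211 to q = 1.69e-302. The 3 strongest lay on chromosome I at 7019576 to 7023151 (q = 1.69e-302) and 7869660 to 7872589 (q = 6.66e-301) and on chromosome III at 5874092 to 5877395 (q = 1.18e-291). None of these overlapped any replicate 1 region. At 10 of the 145 loci replicate 1 did have a line. In 7 of the 10 it was a wide line that touched the combined list by at most 249 bp, and so was not a member, and in 3 it was narrower than 1000 bp.

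Many loci from 1 replicate only lay close to another. Of the 145 from replicate 2 only, 77 lay within 5000 bp of another locus (53.1%, interval 45.0 to 61.0), against 18 of the 104 from both replicates (17.3%, interval 11.2 to 25.7). Of the 22 from replicate 1 only 9 did (40.9%, interval 23.3 to 61.3), an interval that overlaps both others. The merging rule bears on this contrast. In 20 of the 104 loci from both replicates, 1 replicate 1 region joined several replicate 2 regions into 1 locus. Loci from replicate 2 only have no such region to join neighbouring pieces. How much of the contrast follows from the rule was not tested. The 145 loci lay in 102 combined gaps, 68 of which held 1 of them and 27 of which held 2. One such gap, on chromosome IV, held 4 loci between 14609846 and 14624337, the first 8322 bp wide with −log10 q of 194 and the others 2992, 1369 and 1155 bp wide with 40.6, 8.72 and 12.6. Another, on the X chromosome between 8014349 and 8029519, held a 7465 bp locus with −log10 q of 140.4 and 3 narrower ones between 7.95 and 20.3. These crowded gaps were chosen after their values were seen. In each of them, a strong wide locus had weaker ones beside it. Another gap with 4 loci, on chromosome II, held −log10 q of 268, 109.0, 72.2 and 249, so its last locus was nearly as strong as its first. A replicate 2 region split into pieces and several separate regions cannot be told apart here.

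The 22 loci from replicate 1 only were the fewest and the narrowest, with medians of 1864 bp and of 60.0 for −log10 q. The strongest lay on chromosome II at 11755993 to 11757272, only 1280 bp wide with q = 2.52e-306, and had no replicate 2 line. The next, on chromosome I at 10399318 to 10408066, was 8749 bp wide with q = 1.09e-292. Replicate 2 had 7 narrow regions inside it, the largest overlapping one 862 bp wide with −log10 q of 10.5. The locus filled 95.1% of the gap between its combined neighbours, the highest share of any locus. The third, on the X chromosome at 4968936 to 4972251, had q = 1.42e-278 and no replicate 2 line. All 10 replicate 1 loci that had a replicate 2 line faced lines narrower than 1000 bp, none of which was therefore a member.

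Not every member was strong. The best q was above 1e-05 in 11 loci, 5 from replicate 1 only and 6 from replicate 2 only, and 6 of the 11 lay on the X chromosome. The 3 narrowest members of replicate 1 measured 1092, 1134 and 1155 bp, with q = 2.45e-03, q = 8.11e-03 and q = 2.64e-55, and its widest absent regions under the limit measured 966, 946 and 903 bp, with q = 2.51e-62, q = 1.29e-03 and q = 2.74e-04. In replicate 2 the members just inside measured 1010, 1013 and 1016 bp, with q = 1.08e-26, q = 1.52e-03 and q = 5.71e-06, and those just outside 998, 982 and 980 bp, with q = 8.64e-34, q = 1.36e-54 and q = 1.90e-12. The width limit thus cuts through regions of mixed strength. Below it, 705 of 5529 replicate 1 regions and 713 of 6058 replicate 2 regions were absent from the combined list, with median −log10 q of 3.23 and 3.02.

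The third question was where the loci lay, which the rule did not use. Chromosome III held 66 loci, or 4.79 per Mb, and chromosome I held 58, or 3.86 per Mb. Chromosome IV had 2.75 per Mb, chromosomes II and X had 2.10 and 2.09, and chromosome V was lowest at 1.44. As a share of all wide loci, absent and present, the order was III (19.2%, Wilson 95% interval 15.4 to 23.7), I (16.8%, interval 13.2 to 21.1), IV (12%, interval 9.17 to 15.6), II (10.8%), X (10.5%) and V (10.3%, interval 7.29 to 14.3). The intervals of neighbours in this order overlap, and that of III does not overlap those of II, V or X, whose upper bounds are 14.9%, 14.3% and 14.2%. These intervals count each locus as a separate unit. Yet 104 of the 271 loci lay within 5000 bp of another, and all came from the same 2 libraries. Differences between chromosomes were not tested. By list, 42.1% of wide replicate 2 regions on III and 36.7% on I were absent, against 18.4% on V and on X, and in replicate 1 chromosome I was highest with 11.01%, followed by III with 9.22%, and X was lowest with 4.59%.

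**Figure D4:**
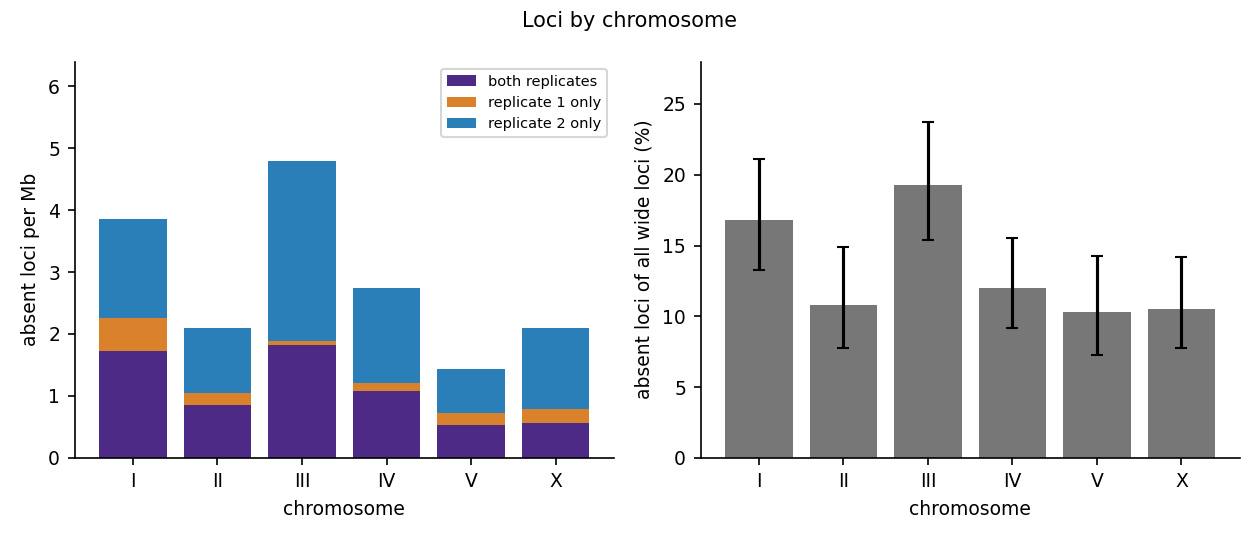
Left, loci per Mb on each chromosome, stacked by the replicates they came from. Right, absent loci as a percent of all loci of 1000 bp or more, with Wilson 95% intervals; chromosomes III and I are highest in both panels, at 4.79 and 3.86 loci per Mb.

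The X chromosome, which is largely silent in the germ line of this species, had 37 loci. That was 2.09 per Mb against 2.84 on the 5 autosomes, a ratio of 0.736. Present wide loci, built from wide replicate regions that overlap the combined list, were as dense on X as on the autosomes (17.7 and 17.5 per Mb, ratio 1.01). For the regions of the combined list itself, of all widths, the ratio was 0.544 (53.5 against 98.3 per Mb), lower than that of the absent loci. The differences between these ratios were not tested. Among the absent loci the ratio was 0.495 for those from both replicates, 0.878 for replicate 2 only and 1.03 for replicate 1 only. These rest on 10, 23 and 4 X loci. By covered bases the ratios were 0.746, 0.791 and 0.732, so the spread between these groups was not seen in bases. For all absent loci the ratio by covered bases was 0.764, against 1.18 for the present wide loci and 0.940 for the combined regions. With a minimum width of 500 bp the ratio of absent loci per Mb was 0.994. X loci were weaker, with a median −log10 q of 119 against 182 on the autosomes, and 20 of 37 had q below 1e-100 (54.1%, interval 38.4 to 69.0) against 163 of 234 (69.7%, interval 63.5 to 75.2). These intervals overlap.

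Loci were denser in the centres of chromosomes, which are richer in conserved and highly expressed genes, than in the outer parts. With each chromosome divided into 3 equal lengths, the centre held 4.08 loci per Mb and the outer parts 2.21 on average, a difference of 1.87 ± 0.869 (SD, n = 6 chromosomes), positive on 6 of 6 (exact permutation test by sign flips, two-sided, p = 0.03125, the lowest that 6 values allow). Chromosome II had the steepest contrast, 4.13 against 1.08 per Mb, and X the smallest, 2.37 against 1.95. Present wide loci, from replicate regions that overlap the combined list, showed the same direction, 22.0 against 15.7 per Mb. The excess is thus not shown to be particular to the absent loci. By the same exact permutation test the call was lost with members of at least 2000 bp (difference 0.940, p = 0.09375) and with members of q below 1e-20 (1.39, p = 0.0625), and X turned negative in both. Without replicate 2 the difference was 0.509 (exact permutation p = 0.15625) and III turned negative.

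**Figure D5:**
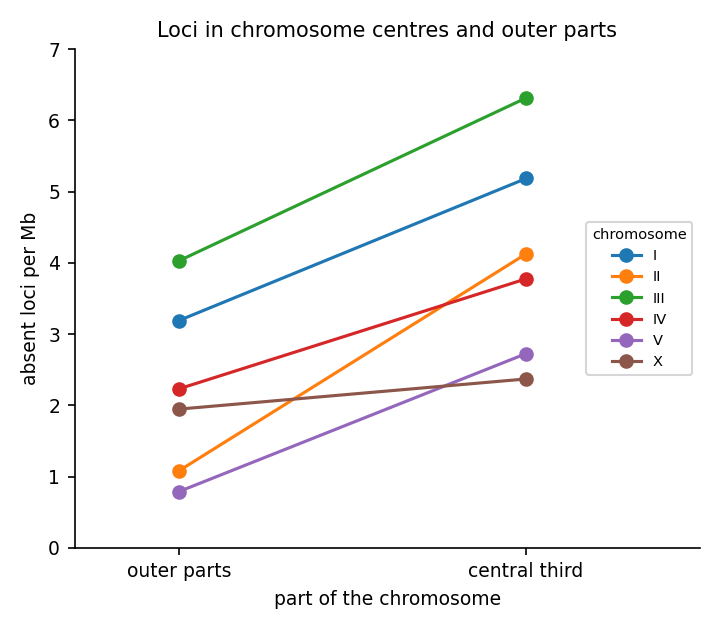
Loci per Mb in the outer parts and the central part of each chromosome, each divided into 3 equal lengths, 1 line per chromosome. All 6 lines rise towards the centre, from 2.21 to 4.08 per Mb on average.

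The loci covered 1.11 Mb, or 1.10% of the nuclear chromosomes, beside the 6.91% that the combined list covers. Adding them changed the order of chromosomes. In the combined list alone chromosome IV was highest (8.18% covered), followed by I (7.93%) and III (7.85%), and with the loci III was highest (9.59%), followed by I (9.51%) and IV (9.32%). Chromosome V stayed lowest, at 5.04% and 5.73%. The loci lay a median of 2210 bp from the nearest combined region, and those from both replicates 1162.5 bp.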

How the data were processed

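Pol II ChIP and input samples (2 each) were grouped by their titles. Nothing in the labels ties the replicates to different cultures, and their spread may be technical. Regions were called by the authors with PeakSeq and their coordinates converted to build WS220, per the file headers and comments, from Eland alignments of 36-base reads, per the deposited investigation file and sample table. The deposited lists give a q-value per region, all below 0.01. Read counts are those of the authors' deposited sample table. Replicate lists were called on 1 library each and the combined list on merged ChIP libraries, all against merged input.

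Overlap, merging, shares with Wilson 95% intervals and ranks were computed with Python 3.11.15, numpy 2.4.6 and pandas 2.3.3. For ranks, q was multiplied by each of 2000 starting ranks, and the start with most equal neighbours (tolerance 1e-11) was kept; 2879, 2812 and 3513 ties supported the combined, replicate 1 and replicate 2 ranks. The p-values use the smallest number of tests that makes leading p-values 1 digit long, which for replicate 2 rests on 2 values. The code that finds members was checked on the replicate lists with a planted combined list, and the rank code on simulated p-values. The sign-flip code was checked on fixed values. Chromosome lengths ran to the last region of any list. The single test was an exact sign-flip test over 6 chromosomes. Named loci were the 10 from both replicates with the lowest q, the 5 widest, the 3 strongest of each single replicate, the 3 regions on each side of the width limit and the strongest of each chromosome. The members, lists and rules were chosen with earlier results of these data known. Genes are not named and sequences not shown, because no WS220 annotation or genome was used here. Input region values were not analysed here.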

Additional observations from a re-analysis of the deposited data

How the results depend on the processing

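Across the alternatives tried, the central excess no longer passed its test in 3, and no tested result changed direction. The rho of q between replicates, 0.11 and not tested, ran from -0.05 with regions up to 1000 bp apart merged to 0.28 with a minimum width of 500 bp. That width also gave 375 loci, a median width of 2442 bp against 3664, and a median member −log10 q of 67.8 against 129.8. With a minimum width of 500 bp, 4.83% of wide replicate 1 and 16.2% of replicate 2 regions were absent, 30.7% of loci came from both replicates, 83.0% of replicate 1 members overlapped replicate 2 and the X to autosome ratio was 0.994. With 2000 bp, 11.8% and 47.7% were absent, 97.3% of replicate 1 members overlapped replicate 2, and the central excess was 0.940 per Mb. With q below 1e-20, 9.56% and 35.97% were absent, the X ratio was 0.574 and the central excess 1.39. Members allowed to overlap the combined list over less than 50% of their bases made up 8.42% of wide replicate 1 regions. Overlap of 50% of both regions left 55.4% of replicate 1 and 26.2% of replicate 2 members with a partner, against 31.8% and 49.6% of present wide regions and 29.4% and 30.4% of all regions. Leaving out either replicate gave 130 to 275 loci, 0.630% to 0.868% of nuclear bases, X ratios of 0.607 to 0.724, median −log10 q of 97.1 to 220.3 and central excesses of 0.509 to 1.90 per Mb. The cause of these shifts was not tested. The lists hold no read counts, so the depth behind a single q-value is unknown and the deeper replicate 2 could not be thinned to replicate 1. No paired analysis was possible because no comparison of ChIP with input could be made from the lists.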

Other observations

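Windows were chosen after their values were seen. Of 197 full windows of 500 kb, 79 held no locus. The most, 7, lay on chromosome III between 5000001 and 5500000, where the loci covered 4.12% of bases and the combined list 8.11%. On chromosome I, 9000001 to 9500000 held 6 loci over 6.04% of its bases, and adding them moved this window from rank 44 to rank 4 by covered bases. A combined gap of 51849 bp on chromosome II held 4 loci between 8785871 and 8821325, with −log10 q of 268, 109.0, 72.2 and 249.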
